A study of Mus musculus with 26 samples.

Results

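The 8 genes described here form a set labelled progenitor surface genes. They encode surface proteins of oligodendrocyte progenitor cells (OPCs) or of the cells that differentiate from them. These are the growth factor receptor Pdgfra, the chondroitin sulphate proteoglycans Cspg4 and Cspg5, the receptor phosphatase Ptprz1, the G protein-coupled receptors Gpr17 and Gpr37, and the membrane-spanning proteins Lhfpl3 and Cd9. They were chosen by symbol, and each is represented by 1 transcript. All 8 were listed among the 8530 transcripts of OPCs, the 9751 of oligodendrocytes (OLs), the 8177 common to both and the 8112 with a half-life in every replicate.

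OPCs are dividing glial cells that depend on platelet-derived growth factor, which binds Pdgfra, and are conventionally recognised by Pdgfra and by the proteoglycan Cspg4, also called NG2. As they differentiate they leave the cell cycle, pass through a premyelinating stage known for Gpr17, and switch on the genes of the myelin sheath. The amount of a surface protein that a cell can make depends on how much of its mRNA is transcribed and on how long that mRNA lasts. The libraries gave the labelled level at the end of the pulse, to which synthesis and decay both contribute, and the loss of label afterwards, and they did not measure transcription by itself.

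The cells were 129S/SvEv mouse OPCs derived from epiblast stem cells, kept in medium with bFGF and PDGFA, and OLs obtained from them in medium with noggin, IGF-1, cyclic AMP, NT3 and T3, whose recipe names neither bFGF nor PDGFA. New RNA was tagged for 24 h with 5-ethynyl uridine (5-EU), in OLs from 40 h of differentiation onwards, and the tag was then replaced by uridine, so that the pulled-down RNA reported the decay of the tagged pool at 0, 1, 2, 4 and 6 h of this chase. There were 3 OPC and 2 OL replicates, giving 15 and 10 libraries. The study describes the replicates as biological and each OL replicate as matched to an OPC replicate, without saying which, and OL cultures retain some undifferentiated OPCs according to the study. Values are FPKM (fragments per length of transcript and per number of mapped fragments), which the authors scaled to labelled spike-in RNA, and their sequencing depth is unknown.

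The labelled cell types were checked against marker lists at 0 h. All 10 OPC markers, among them Pdgfra, Cspg4, Ptprz1 and Lhfpl3, were listed in both cell types, with summed levels of 1641 to 1811 FPKM in OPCs and 1142 to 1320 FPKM in OLs. Of these 10, 4 are members, 5 (Pdgfra, Sox6, Sox10, Lhfpl3 and Nkx2-2) were higher in both OL replicates than in every OPC replicate and 4 lower, and without Olig1 the sums overlapped, at 632 to 758 FPKM and 636 to 684 FPKM. Of 14 oligodendrocyte markers, 5 were listed in OPCs, without Mog or Myrf, and 13 in OLs, and their sum was 63.0 to 87.7 FPKM against 3777 to 7904 FPKM. Markers of other cell types were also listed. Of 9 astrocyte markers 6 were listed in OPCs and 8 in OLs, without Aqp4 in either, with sums of 475 to 588 FPKM and 717 to 894 FPKM, which overlapped without S100b, at 464 to 579 FPKM and 427 to 734 FPKM, and Gja1 differed between OL replicates, at 40.1 and 187.5 FPKM. Of 8 neuronal markers 4 and 5 were listed, without Rbfox3 or Snap25 in either, with sums of 93.4 to 198 FPKM and 206 to 223 FPKM, and of 8 neural stem and pluripotent markers 3 were listed in each, with sums of 78.5 to 144 FPKM and 147 to 150 FPKM. None of 8 microglial or of 9 pericyte and fibroblast markers was listed in either. The part of these cell types in the members' levels was not tested. In bulk libraries a smaller number of cells carrying a transcript and less of it per cell cannot be told apart.

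The transcripts were placed on mouse build GRCm38 with GENCODE release M21. Pdgfra was at chr5:75152306-75198215 on the plus strand in 23 exons, Cspg4 at chr9:56865033-56899870 on the plus strand in 10 exons, and Cspg5 at chr9:110243783-110262575 on the plus strand in 5 exons. Ptprz1 was at chr6:22875502-23052916 on the plus strand in 30 exons, Gpr37 at chr6:25667503-25690729 on the minus strand in 2 exons, Lhfpl3 at chr5:22746059-23275597 on the plus strand in 4 exons, and Cd9 at chr6:125460266-125494791 on the minus strand in 8 exons. Gpr17, a gene of 2 exons, shared 188 exonic bases with Lims2 on the opposite strand, and the counting is not stated to use strand, so reads there could not be assigned to either. Lhfpl3 shared 567 bases with the antisense A930003O13Rik and Cd9 218 bases with the antisense Gm26728, neither of which was listed.

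The 8 transcripts ranged widely in the features that bear on decay. Their 3′ UTRs ran from 354 bases in Cspg5 and 395 in Cd9 to 3115 in Pdgfra and 3992 in Gpr17, against a median of 1096 bases over the 10089 transcripts with a usable coding sequence. The pentamer ATTTA, the core of AU-rich elements that recruit decay factors, occurred 5 times in the 3′ UTR of Pdgfra, 2 times in Cspg4, not at all in Cspg5, 2 times in Ptprz1, 1 time in Gpr17, 6 times in Gpr37, 4 times in Lhfpl3 and 1 time in Cd9. Only the transcript strand was searched, and matches could overlap. The windows below, each inside a 3′ UTR and read 5′ to 3′ on the transcript strand with ATTTA in capitals, show the first site of Pdgfra and of Lhfpl3, the only site of Cd9, both sites of Cspg4 and of Ptprz1 and a pair of neighbouring sites of Gpr37. They are shown as examples of this element from members that fell in the chase by test (Pdgfra, Cspg4 and Gpr37) and members that did not (Ptprz1, Lhfpl3 and Cd9). Of 3′ UTRs within 20% of the same length, the share with at least 1 ATTTA ran from 39.9% for Cspg5, which had none and did not fall, and 43.7% for Cd9 to 98.02% for Gpr17, which had 1 and fell.
Pdgfra, chr5:75195870-75195894, plus: agtttttgacATTTAtattaagtaa
Cspg4, chr9:56899329-56899357, plus: ttaATTTAaggcaagaaagctATTTAaca
Gpr37, chr6:25667849-25667877, minus: tactacATTTAaatggatATTTAataaaa
Ptprz1, chr6:23052613-23052641, plus: atggaccaaATTTAtATTTAtaattgtag
Lhfpl3, chr5:23274211-23274235, plus: atgcataggaATTTAatatacttta
Cd9, chr6:125460472-125460496, minus: cgggggttcaATTTAttttgatttt

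Codon choice differed as much. Ptprz1 had G or C in the last position of 42.8% of its codons, a share below which 9.98% of transcripts lay, and used UUU for 58.1% of its phenylalanine codons, whereas Lhfpl3 had 77.6% and 22.2%, and Cd9 69.0% and 15.8%. The medians over all transcripts were 60.6% and 44.4%. Lysine codons were ordered otherwise, AAA making up 50.0% of them in Lhfpl3, 44.3% in Ptprz1 and 35.7% in Cd9, beside a median of 37.5%. A coding stretch of 10 codons, the richest in phenylalanine and lysine codons in each gene, is shown for the members with the lowest and the highest share of G or C in the last position, with those codons in capitals.
Ptprz1, codons 78 to 87, chr6:22959737-22959766, plus: AAGAAActgAAATTTcagggttgggaaAAA
Lhfpl3, codons 98 to 107, chr5:22746484-22746513, plus: tcgggcgccTTCAAAgccgcctccTTCTTC

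Labelled levels at 0 h did not follow the label of progenitor genes. Of the 8, 5 were higher in OLs, namely Pdgfra, Gpr17, Gpr37, Lhfpl3 and Cd9, and 1 was lower, Cspg5, at an adjusted p under 0.05 in limma on log2(FPKM + 1) over all shared transcripts. Over all 8177 of these, 13.8% were higher in OLs and 15.8% lower. The 2 conventional OPC markers parted, since Pdgfra was higher in OLs and Cspg4 did not pass the test.

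Pdgfra, the receptor for PDGFA, stood at 26.5, 11.5 and 13.3 FPKM in OPC replicates 1, 2 and 3 and at 66.9 and 43.9 FPKM in OL replicates 1 and 2. Both OL replicates lay above all OPC replicates, and the OL mean was 3.24-fold the OPC mean. The difference was 1.70 ± 0.37 on the log2 scale (SE, adjusted p 0.012), and without OL replicate 1 it was 1.40 and lost its call (adjusted p 0.114). Sox10, a transcription factor of the lineage, varied in the same direction between OPC replicates, at 25.4, 4.07 and 11.9 FPKM, and reached 111 and 89.0 FPKM in OLs.

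Among the proteoglycans, Cspg5, also called neuroglycan C, was lower in OLs. It stood at 107, 98.8 and 116 FPKM in OPCs and at 55.8 and 46.1 FPKM in OLs, with no overlap, a log2 difference of -1.06 ± 0.22 (SE, adjusted p 0.0094) and an OPC mean 2.103-fold the OL mean. Without OPC replicate 3 or OL replicate 2 the adjusted p was 0.0532 or 0.0715. Cspg4 stood at 55.7, 35.7 and 43.9 FPKM in OPCs and at 30.7 and 29.9 FPKM in OLs, and its groups did not overlap, but its difference of -0.53 ± 0.25 did not pass (SE, adjusted p 0.135). Ptprz1, a phosphatase that carries chondroitin sulphate chains and binds pleiotrophin, stood at 97.7, 255 and 172 FPKM in OPCs and at 109 and 127 FPKM in OLs, so the groups overlapped (adjusted p 0.384). OPC replicate 1 was the lowest, and without it the difference was -0.82 and passed (adjusted p 0.0427).

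Both G protein-coupled receptors were higher in OLs. Gpr17, whose level marks premyelinating cells, stood at 5.99, 5.00 and 6.61 FPKM in OPCs and at 323 and 299 FPKM in OLs, a 53.1-fold higher mean and a log2 difference of 5.51 ± 0.22 (SE, adjusted p 4.9e-05), a difference that 99.9% of transcripts did not reach. Gpr37, a receptor found in myelinating cells, stood at 2.64, 1.45 and 1.99 FPKM in OPCs, close to the floor of 1 FPKM that the authors set at 0 h, and at 27.6 and 14.0 FPKM in OLs. Its mean was 10.3-fold higher in OLs, with a log2 difference of 2.80 ± 0.32 (SE, adjusted p 0.00069). Leaving out any 1 replicate kept the call for both receptors.

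The membrane-spanning proteins were also higher in OLs. Cd9, a tetraspanin that organises other surface proteins, stood at 92.9, 24.6 and 70.9 FPKM in OPCs and at 515 and 326 FPKM in OLs, a 6.70-fold higher mean (log2 difference 2.88 ± 0.52, SE, adjusted p 0.0055, and 2.55 with adjusted p 0.0711 without OL replicate 1). Lhfpl3, of the lipoma HMGIC fusion partner-like family, stood at 12.1, 20.4 and 16.3 FPKM in OPCs and at 27.6 and 35.2 FPKM in OLs. Its difference of 0.93 ± 0.27 passed (SE, adjusted p 0.0348), but not without OPC replicate 3 or without either OL replicate (adjusted p 0.0997, 0.0988 and 0.193). Over all transcripts 28% had both OL replicates above every OPC replicate and 31.4% had both below, so the absence of overlap for 7 of the 8 genes has to be read against these shares.

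**Figure D1:**
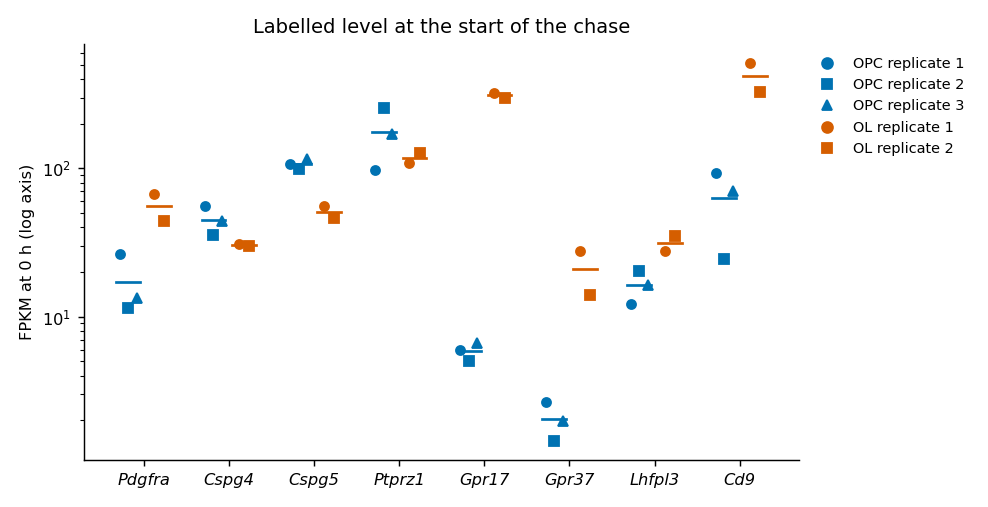
FPKM at 0 h of chase (log axis) for the 8 genes in each replicate, with OPCs in blue, OLs in orange and bars at the mean of each cell type. Gpr17, Gpr37 and Cd9 lay far higher in both OL replicates, Cspg5 lay lower, and the Ptprz1 groups overlapped.

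OPC replicates differed among themselves in a recurrent order. Replicate 1 was highest for Pdgfra, Cspg4, Gpr37 and Cd9 and lowest for Ptprz1 and Lhfpl3, and replicate 2 was the reverse for Pdgfra, Cspg4, Gpr37, Cd9, Ptprz1 and Lhfpl3. Of 6 proliferation markers, Mki67 was at 8.46, 41.3 and 30.2 FPKM and Top2a at 33.7, 130 and 81.9 FPKM in OPC replicates 1, 2 and 3. The others did not share the order of Mki67 and Top2a. Pcna (198, 190 and 175 FPKM) and Mcm5 (141, 114 and 133 FPKM) were highest in replicate 1, and Mcm5 was lowest in replicate 2, as Pdgfra was. Ccnb1 (66.5, 67.0 and 77.1 FPKM) and Mcm6 (40.4, 46.6 and 48.6 FPKM) were highest in replicate 3. Their part in the members' levels was not tested.

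During the chase the genes split into a group that fell by test and a group that did not. The test was the slope of log2(FPKM + 1) on time in limma with an intercept for each replicate. Pdgfra, Cspg4, Gpr17 and Gpr37 fell in both cell types on the deposited scale, although with each library set to its replicate's 0 h median the slopes of Cspg4 in both and of Gpr17 in OPCs turned positive without passing. Ptprz1, Lhfpl3 and Cd9 rose in OPCs on either scale and passed in OLs only on the median scale, where Cspg5 rose in both as well. In OPCs 4 of 8 members fell and 3 rose, beside 81.7% and 4.31% of the 8530 transcripts. With any 1 OPC replicate left out 1 to 2 members rose, and fewer than 3 rose without the 1 h libraries. In OLs 4 of 8 fell and none rose, beside 68.4% and 1.5% of the 9751 transcripts. On the median scale, which removes the spike-in scaling, 34% of transcripts rose and 25.4% fell in OPCs, and 30.4% rose and 20.1% fell in OLs.

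The mRNA of Pdgfra was retained less than the median transcript at 4 and 6 h in every replicate. At 1 h it was not, in OPC replicate 3 and in both OL replicates. From 0 to 6 h it went through 26.5, 16.9, 6.10, 4.84 and 1.85 FPKM in OPC replicate 1, 11.5, 9.95, 7.15, 1.20 and 0.118 FPKM in replicate 2, and 13.3, 10.9, 5.94, 1.90 and 1.09 FPKM in replicate 3. In OLs it went through 66.9, 45.5, 41.9, 21.5 and 14.5 FPKM in replicate 1 and 43.9, 44.1, 29.3, 14.3 and 6.08 FPKM in replicate 2. Every OPC replicate retained less at 6 h, at 6.97%, 1.03% and 8.22% of its 0 h level, than either OL replicate, at 21.6% and 13.9%. The slopes were -0.55 ± 0.05 log2 units per h in OPCs and -0.41 ± 0.04 in OLs (SE, adjusted p 3.8e-08 and 2.9e-06), and they still passed as falling with each library at its 0 h median. The slope difference of 0.14 ± 0.08 did not pass (SE, adjusted p 0.228).

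Cspg4 also fell in both, but OL replicates disagreed. It was at 55.7, 31.0, 30.6, 15.3 and 6.71 FPKM in OPC replicate 1, retaining 12.05% at 6 h, and OPC replicates 2 and 3 retained 15.3% and 28.9%. OL replicate 1 retained 58.7% and OL replicate 2 20.3%, so the groups overlapped. The slopes were -0.39 ± 0.04 in OPCs and -0.22 ± 0.05 in OLs (SE, adjusted p 2.7e-07 and 0.0013). Without OL replicate 2 the OL slope was -0.10 (adjusted p 0.310), without the 6 h libraries it was -0.18 (adjusted p 0.0563), and with each library at its 0 h median it turned to 0.09 in OPCs and 0.03 in OLs, neither past the threshold.

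Cspg5 and Ptprz1 did not fall by test in either cell type. Cspg5 retained 55.3%, 81.5% and 77.3% at 6 h in OPCs and 87.9% and 74.6% in OLs, and its slopes of -0.06 ± 0.04 and -0.02 ± 0.04 did not pass (SE, adjusted p 0.123 and 0.634). Ptprz1 went through 97.7, 92.5, 134, 262 and 164 FPKM in OPC replicate 1, 255, 243, 293, 278 and 377 FPKM in replicate 2, and 172, 153, 235, 343 and 314 FPKM in replicate 3. It thus ended above its start in every OPC replicate, at 168%, 148% and 183% at 6 h, while OL replicates ended at 110% and 67.4%. Ptprz1 was the member above its own 0 h level at both 4 and 6 h in every OPC replicate, as were 3.6% of transcripts, and no member was so in both OL replicates, where 4.1% of transcripts were.

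The Ptprz1 slope was 0.15 ± 0.04 in OPCs (SE, adjusted p 0.0034) and -0.01 ± 0.04 in OLs (adjusted p 0.869). The slope difference of -0.16 ± 0.08 did not pass (SE, adjusted p 0.159), and 0.599% of transcripts had a lower one. It passed with an intensity trend in limma (adjusted p 0.0267) and as a term for cell type by time over the 25 libraries (adjusted p 0.0476). That term takes the libraries of a replicate as separate units, although the replicate is the unit between cell types, so its p-value is too small. A level above that at 0 h of a chase is an observation on the deposited scale, which rests on the spike-ins.

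Gpr17 fell steeply in OLs. It went through 323, 175, 185, 60.6 and 36.0 FPKM in OL replicate 1 and 299, 228, 171, 53.5 and 21.1 FPKM in replicate 2, retaining 11.1% and 7.06% at 6 h. In OPCs it went through 5.99, 4.38, 1.41, 0.348 and 1.75 FPKM in replicate 1, 5.00, 4.17, 1.45, 1.08 and 0.906 FPKM in replicate 2, and 6.61, 3.24, 2.08, 1.07 and 1.23 FPKM in replicate 3, so that from 2 h onwards it lay near 1 FPKM. On the deposited scale the slopes were -0.28 ± 0.06 in OPCs and -0.59 ± 0.05 in OLs (SE, adjusted p 0.00026 and 1.2e-06), and 0.103% of OL transcripts had a lower slope. Its rank was less extreme by other measures. In OL replicates 1 and 2, 14.6% and 10.3% of transcripts had a shorter half-life, and 10.5% and 2.21% were retained less at 6 h. On the median scale the OPC slope was 0.09 (adjusted p 0.374).

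The Gpr17 slope was the 1 member slope that differed between cell types by test, at -0.31 ± 0.08 in OLs relative to OPCs (SE, adjusted p 0.0177), beside 0.0856% of the 8177 shared transcripts that passed in this direction and 23.7% in the other. Both OL slopes lay below all OPC slopes, as for 3.27% of transcripts, while 50.9% had both above. With each library at its 0 h median the difference did not pass, with slopes of 0.07, 0.15 and 0.04 in OPC replicates 1, 2 and 3 and of -0.27 and -0.42 in OL replicates 1 and 2. The pseudocount of 1 FPKM lay close to the OPC values. With a pseudocount of 0.1 FPKM the difference was -0.20 (adjusted p 0.156), with the 6 h libraries left out it was -0.10 (adjusted p 0.613), and without OL replicate 1 or 2 it was -0.37 or -0.24 (adjusted p 0.0885 and 0.180). On the percent scale OPC replicates retained 5.80%, 21.5% and 16.2% of Gpr17 at 4 h and OLs 18.7% and 17.9%, overlapping, whereas at 6 h OPCs retained 29.1%, 18.1% and 18.6%, above both OL replicates.

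Gpr37 fell in both cell types and was listed at 0 in some OPC libraries. It went through 27.6, 17.2, 22.8, 15.05 and 6.06 FPKM in OL replicate 1 and 14.0, 14.2, 11.6, 6.10 and 2.36 FPKM in replicate 2. In OPCs it was listed at 0 at 6 h in replicates 1 and 3, from 2.64 and 1.99 FPKM at 0 h, and went from 1.45 to 0.791 FPKM in replicate 2. The slopes were -0.26 ± 0.05 in OPCs and -0.34 ± 0.05 in OLs (SE, adjusted p 4.2e-05 and 2.9e-05), and with each library at its 0 h median they were -0.13 and -0.11 and did not pass (adjusted p 0.193 and 0.0754).

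Lhfpl3 and Cd9 ended near or above their starting level. Lhfpl3 was at 115%, 181% and 232% of 0 h at 6 h in OPC replicates 1, 2 and 3 and at 120% and 119% in OLs, with slopes of 0.16 ± 0.05 in OPCs (SE, adjusted p 0.011) and 0.04 ± 0.04 in OLs (adjusted p 0.432). Cd9 was at 107%, 228% and 100% in OPCs and at 96.5% and 83.5% in OLs. Its slope of 0.10 ± 0.04 in OPCs (SE, adjusted p 0.0463) did not pass when any 1 replicate was left out (adjusted p 0.0730 to 0.250), and that of Lhfpl3 did not pass without OPC replicate 3 (adjusted p 0.131).

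**Figure D2:**
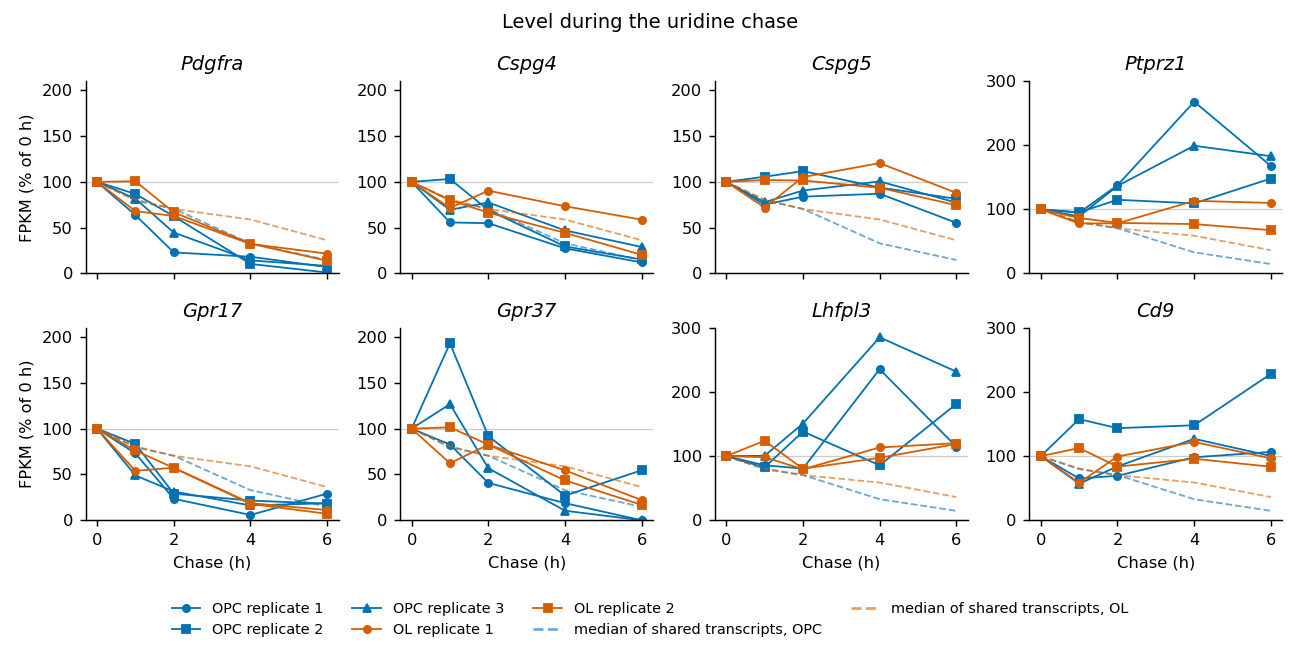
FPKM as a percentage of the replicate's own 0 h value against hours of chase for the 8 genes, with OPC replicates in blue and OL replicates in orange. Dashed lines are the mean over replicates of the median shared transcript. Pdgfra, Cspg4, Cspg5, Gpr17 and Gpr37 ended below their 0 h level in every replicate. Cspg5, Ptprz1, Lhfpl3 and Cd9 stayed above the dashed lines at 6 h in every replicate, and Gpr17 lay above its line at 6 h in OPCs and below it in OLs.

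The level retained at 6 h therefore separated the cell types for 4 of 8 members without overlap. Pdgfra was retained more in both OL replicates, as were 48.9% of shared transcripts, and Ptprz1, Gpr17 and Cd9 were retained less, as were 2.86%. Since the median transcript itself was retained at 11.3% to 18.1% in OPCs and at 33.0% and 39.4% in OLs, the same shares were taken relative to the replicate's median. On that scale Cspg5, Ptprz1, Gpr17, Lhfpl3 and Cd9 were lower in both OL replicates, as were 30.5% of transcripts, none of the 8 was higher, as 15.9% were, and Pdgfra overlapped. Ptprz1 was retained at 11.3, 13.1 and 10.1 times the median transcript in OPCs and at 3.33 and 1.71 times in OLs. At 4 h on the deposited scale Pdgfra and Gpr37 were higher in OLs, as were 48.7% of transcripts, and none of the 8 was lower, as 3.28% were.

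**Figure D3:**
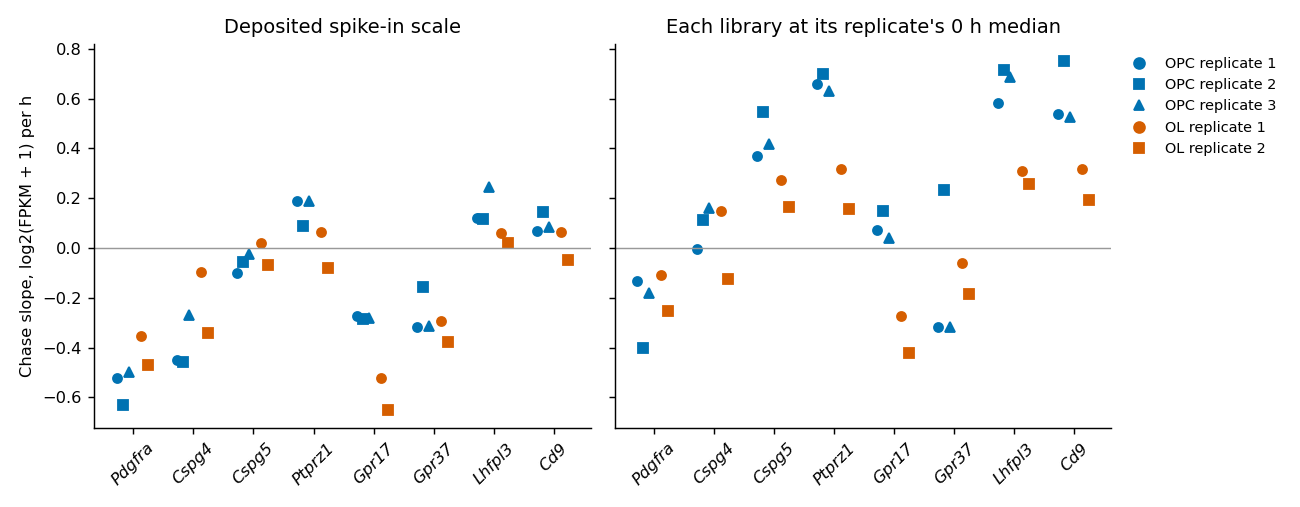
Chase slopes in log2(FPKM + 1) per h for each gene and replicate (OPCs in blue, OLs in orange), on the deposited spike-in scale (left) and with each library set to its replicate's 0 h median (right). On the right the slopes of Cspg5, Ptprz1, Lhfpl3 and Cd9 were above 0 in all 5 replicates and those of Pdgfra below 0 in all 5.

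The deposited half-lives were fitted to the same chase values as the slopes, so they are no separate support. They gave a similar division, apart from Cspg4 in OL replicate 1 and Gpr37 in OPC replicate 2, which were at the 6 h ceiling. Cspg5, Ptprz1, Lhfpl3 and Cd9 were at the 6 h ceiling in all 5 replicates, as were 16.1% of transcripts, and a value at the ceiling is a lower bound that cannot be compared between cell types. No member passed the test on log2 half-life, beside 3.39% of 8112 transcripts longer in OLs and 0.148% shorter, and the count was 0 of 8 under every alternative tried. At an unadjusted p under 0.05 it was 1 of 8, Pdgfra, longer in OLs as were 22.2% of transcripts at that threshold.

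Pdgfra had half-lives of 1.54, 1.96 and 1.72 h in OPCs and of 2.72 and 2.47 h in OLs. The groups did not overlap, as for 35.9% of transcripts longer in OLs, and the log2 difference was 0.58 ± 0.13 (SE, adjusted p 0.117, unadjusted p 0.015). By half-life Pdgfra kept its place among the other transcripts, since 21.6% to 27.7% of them were shorter in OPCs and 29.4% and 20.9% in OLs. By chase slope it did not, since 17.9% of transcripts had a lower slope in OPCs and 6.5% in OLs. Cspg4 had 2.14, 2.27 and 3.67 h in OPCs and the ceiling and 3.38 h in OLs, which overlapped.

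Gpr17 had the shortest half-lives of the 8, at 0.974, 1.81 and 1.20 h in OPCs and 1.66 and 1.96 h in OLs, overlapping between cell types (log2 difference 0.49 ± 0.33, SE, adjusted p 0.503). The direction is opposite to that of its slope. Gpr37 had 1.65 h, the ceiling and 1.96 h in OPCs and 4.56 and 3.33 h in OLs, so that the OPC replicates alone spanned the OL values.

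A single value recurred in these fits. A half-life of 1.957 h, to within 0.001 h, was given to Pdgfra in OPC replicate 2, to Gpr37 in OPC replicate 3 and to Gpr17 in OL replicate 2, and to 2.1%, 25.3% and 7.46% of the 8112 transcripts in OPC replicates 1, 2 and 3 and to 0.382% and 1.16% in OL replicates 1 and 2. It is the half-life at which the sum of absolute deviations over 1, 2, 4 and 6 h is stationary for any transcript that lies above the curve at 1 and 2 h and below it at 4 and 6 h, whatever the distances. The 3 members with it had that shape: Pdgfra, for example, was at 86.8%, 62.4%, 10.4% and 1.03% of its 0 h level at these times in OPC replicate 2. Least-squares fits of the same values, chosen after seeing the data, gave Pdgfra 1.27, 2.01 and 1.81 h in OPCs and 2.54 and 2.90 h in OLs, and Gpr17 1.41, 1.79 and 1.24 h against 1.78 and 2.00 h.

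**Figure D4:**
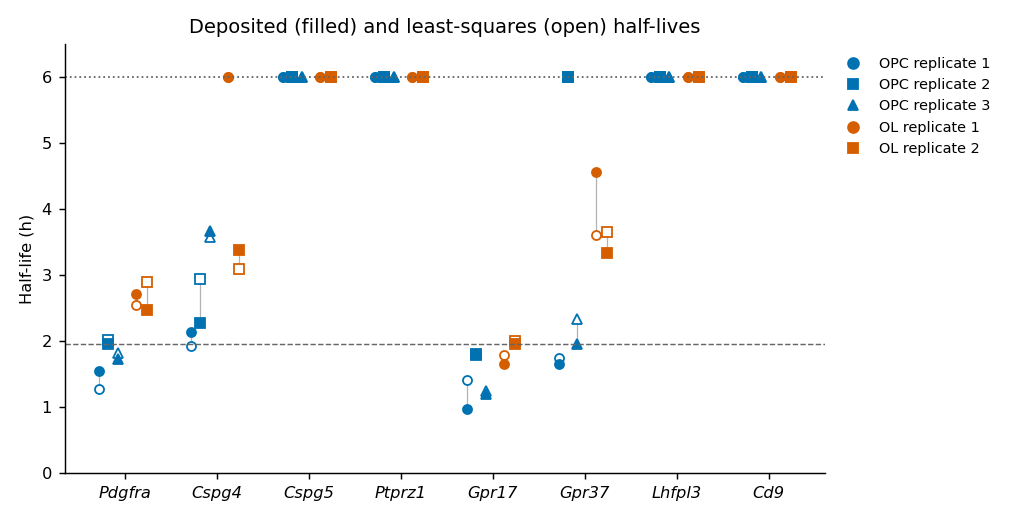
Half-life in h for each gene and replicate as deposited (filled) and as refitted by least squares (open), with OPCs in blue and OLs in orange. The dotted line is the 6 h ceiling and the dashed line the recurrent value of 1.957 h, on which Pdgfra in OPC replicate 2, Gpr17 in OL replicate 2 and Gpr37 in OPC replicate 3 lay.

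Over all 25 libraries the patterns of the members were compared as log2(FPKM + 1) minus the library's median. Cspg5 and Ptprz1 had a Pearson r of 0.941, Gpr17 and Gpr37 of 0.927 and Pdgfra and Gpr17 of 0.862, while Pdgfra and Ptprz1 had -0.708. The pairs did not follow the division by decay, since Pdgfra and Cspg4, which both fell, had -0.30, and Cd9, which did not fall, had 0.806 with Gpr37 and 0.729 with Gpr17 but 0.058 with Ptprz1 and -0.022 with Cspg5. The libraries share their cell type, chase time and replicate, so these are descriptions. Among 6572 transcripts with a mean of at least 5 FPKM, the closest to Pdgfra were Aatk (0.941) and Sox10 (0.935), and those to Cspg4 were Coasy (0.842) and Olig1 (0.817), Sox10 and Olig1 being transcription factors of the lineage. The closest to Gpr17 were Atcay (0.980) and Inava (0.979), and to Gpr37 Capn5 (0.961) and Adamts4 (0.957), a protease that cleaves proteoglycans. Among those closest to Ptprz1 was Eif4g2 (0.986), and the closest to Cspg5 were Anapc5 (0.992) and Stmn1 (0.991), to Lhfpl3 Chpt1 (0.974) and Twf1 (0.959), and to Cd9 Abat (0.980) and Reep5 (0.973).

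Genes that act with the members were followed in 7 lists of 98 genes, of which 71 were tested at 0 h, with 12 higher and 10 lower in OLs, near the shares of 13.8% and 15.8% over all transcripts, and a median log2 difference of -0.01 beside -0.01 over all transcripts. Among 6 tested ligands and adhesion partners, Cntn1, a contactin that binds Ptprz1, was higher, from 54.8 to 70.2 FPKM in OPCs to 284 and 232 FPKM in OLs (log2 difference 2.09 ± 0.23, SE, adjusted p 0.00063). Of 14 signalling partners 2 were higher, the kinase Fyn (1.05, adjusted p 0.0121) and the phosphatase Ptpn11 (0.83, adjusted p 0.0382), and 1 was lower, the scaffold Dlg4 (-0.96, adjusted p 0.0133). Of 11 proteoglycans 1 was higher, Vcan (1.41, adjusted p 0.0204), and 3 were lower, with Sdc3 (-2.04) and Sdc1 (-1.23) the lowest (adjusted p 0.00063 and 0.005). Of those named, Dlg4, Fyn, Ptpn11, Vcan and Sdc1 did not pass without OL replicate 1 (adjusted p 0.0529 to 0.235), Dlg4, Ptpn11 and Vcan without OL replicate 2 (0.0599 to 0.137), Dlg4, Fyn and Ptpn11 without OPC replicate 3 (0.0546 to 0.121) and Ptpn11 without OPC replicate 2 (0.0716), with the replicate block (0.0852) and with each library at a common median (0.0521).

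Of 13 tested enzymes that build chondroitin sulphate, the sugar chain on Cspg4, Cspg5 and Ptprz1, 3 were higher, with the sulphotransferases Chst3 (2.35) and Chst11 (1.56) the highest, and 2 were lower, Xylt1 (-1.64), which starts the chain, and Chsy1 (-1.50), which extends it (adjusted p 0.00042, 0.0024, 0.0022 and 0.0052), and Chsy1 did not pass without OL replicate 1 (adjusted p 0.0538). Of 18 tetraspanins and partners 3 were higher and 3 lower, from Tspan4 at 17.2 to 49.4 FPKM in OPCs and 854 and 577 FPKM in OLs (4.59, adjusted p 0.00032) to Tspan5 (-2.18, adjusted p 0.00034). Lhfpl2, a relative of Lhfpl3, was higher in OLs (4.26, adjusted p 0.00011), the 1 of 4 family members that passed, and of 5 surface proteases Bace1 was higher (1.97) and Mmp15 lower (-2.16, adjusted p 0.0035 and 0.00064).

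In the chase, all 13 synthetic enzymes fell in OPCs and 11 of 14 fell in OLs, beside 81.7% and 68.4% of all transcripts, with median slopes of -0.44 and -0.30 log2 units per h beside -0.38 and -0.20 over all transcripts. Of 18 tetraspanins and partners 5 rose and 8 fell in OPCs, with a median slope of -0.09, and 1 of 20 rose and 7 fell in OLs, with a median near 0. Cd63 and Tspan7, relatives of Cd9, rose in OPCs (0.12 and 0.16, adjusted p 0.0091 and 0.0016), and Tspan14 fell (-0.53, adjusted p 5.8e-08), but not with each library at its 0 h median (-0.06, adjusted p 0.350). Bcan and Ncan, proteoglycans of the brain matrix, rose in OPCs (0.18 and 0.10, adjusted p 0.00056 and 0.0292), and Sdc1 fell (-0.62, adjusted p 3.7e-07). Cd63 and Ncan did not pass without OPC replicate 2 (adjusted p 0.0765 and 0.156) or 3 (0.0603 and 0.167) or without the 6 h libraries (0.0964 and 0.148), nor Ncan without the 1 h libraries (0.127). Of the signalling partners 15 of 16 fell in OPCs and 10 of 15 in OLs, the latter near the share over all transcripts.

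Half-lives of these genes differed by test for 1 of 70, beside 3.39% of all transcripts longer in OLs. It was Chsy1, at 1.93, 1.96 and 2.20 h in OPCs and 3.98 and 3.57 h in OLs (log2 difference 0.90 ± 0.09, SE, adjusted p 0.0425), the value in OPC replicate 2 being the recurrent one. It did not pass when any 1 replicate was left out (adjusted p 0.065 to 0.138), with the replicate block (adjusted p 0.191), with each replicate centred (difference -0.0068, adjusted p 0.988) or by least squares (adjusted p 0.125). The slope differed for 11 of 71, 10 higher in OLs and 1 lower, beside 23.7% and 0.0856% of all transcripts, so that the share higher lay below that over all. Of the 13 synthetic enzymes 6 were higher. Of these differences, those named by the rule did not pass without OL replicate 1 or without OL replicate 2.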

How the data were processed

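5-EU-labelled RNA from 3 OPC and 2 OL replicates at 5 chase times was analysed (25 of 26 samples). The no-biotin OPC library was not analysed here. Per the submitters' processing notes and the study's methods, the authors aligned reads with HISAT2 2.1.0 to GRCm38, quantified canonical coding transcripts with StringTie 1.3.5 and deposited FPKM values, scaled to labelled spike-ins, of transcripts at or above 1 FPKM at 0 h. The study states that those at 0 FPKM at 1 and 2 h were also removed. None was listed at 0 at these times, so the shares over all transcripts leave such transcripts out. The half-lives in h were deposited by the authors from an exponential fit by least absolute deviations, with a ceiling of 6 h. The refit matched 98.5% to 99.9% of them within 0.01 h. Depth is unknown.

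Values were tested as log2(FPKM + 1), or log2 half-life, with limma 3.58.1 in R 4.3.3 and two-sided Benjamini-Hochberg adjusted p-values over all transcripts. Slopes between cell types were compared as 1 slope per replicate. No value was filtered out beyond the deposited filter, and all 8 members passed it. Half-lives over the ceiling were set to 6 h. Sequences came from GENCODE M21, to which all 10104 transcript identifiers matched. The reference and the files share build GRCm38.

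The members were named by rule, with the 2 transcripts most like each over the libraries, of which 1 is not reported here. Of each partner list, the 2 highest and 2 lowest values past the threshold could be named. Sox10 was chosen after its values were seen, as were the genes named from the marker lists. Members and lists were chosen with earlier results of these data known. Pseudocounts, filters, scalings, time points, replicates and fits were varied.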

Additional observations from a re-analysis of the deposited data

Results flagged for a closer look

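The chase slope differed between OLs and OPCs by the limma test of the difference itself for 1 of the 8 genes and for partner genes named by the rule. Gpr17 had a slope lower in OLs by 0.31 log2 units per h (-0.31, adjusted p 0.0177), with both OL replicates below all 3 OPC replicates. Its OPC level was near the pseudocount of 1 FPKM, and the difference did not pass at a pseudocount of 0.1 FPKM (adjusted p 0.156). Nor did it pass with each library at its 0 h median.

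Chst3, a sulphotransferase at 1.46 to 2.29 FPKM in OPCs, was also lower, at -0.25 (adjusted p 0.0385). It was at 0.083 with a pseudocount of 0.1 FPKM (adjusted p 0.557) and did not pass when any 1 replicate was left out (adjusted p 0.051 to 0.296). Slopes were higher in OLs for Dlg4 (0.36), Gpc2 (0.25), Sdc4 (0.28), Chpf (0.30), Chpf2 (0.36) and Tspan9 (0.25), with adjusted p from 0.012 to 0.0417, beside a median difference of 0.14 over all transcripts. None of these 6 passed without OL replicate 1 (adjusted p 0.126 to 0.257), without OL replicate 2 (0.082 to 0.252) or with each library at its 0 h median (0.0871 to 0.692). Groups of 2 and 3 replicates were too small to be examined for single outlying samples.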

How the results depend on the processing

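Of the alternatives' counts, 187 stayed within 1.5 times the reported one and 89 did not. Of the members' own values 513 kept direction and call, 25 lost and 7 gained a call, 28 turned in sign, and 27 shares retained at 6 h moved by over 1 SD. The cause was not tested. Precision is limited by 2 and 3 replicates, by an unknown depth and by the 6 h ceiling.

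The study matches the OL replicates to OPC replicates but the sources used here do not tie the numbers, and the numbers were not shown to pair the cultures, since deviations of same-numbered replicates from their group means had r of 0.06 and 0.01 at 0 h, -0.002 and -0.11 for half-life and -0.03 and -0.10 for slope. With the replicate block, 0 transcripts had a longer and 0 a shorter half-life (275 and 12 without, of 8112), and no member's call changed in any comparison. Without replicate intercepts (no replicate block), 76 transcripts rose in OLs (146 with), and Cd9 in OPCs did not pass (adjusted p 0.161).

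The members' levels at 0 h kept their calls under every alternative other than leaving out a replicate. Leaving one out, 419 to 1306 transcripts were higher and 477 to 1324 lower in OLs (1127 and 1294 with all), and 2 to 5 members were higher and 0 to 2 lower.

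In OPCs, a mean of at least 5 FPKM left 2 members falling, since Gpr17 and Gpr37 were no longer tested. With each library at the 0 h median, 2904 transcripts rose and 2166 fell (368 and 6966 as reported), 1 member fell, and the slopes of Cspg4 (0.094), Cspg5 (0.45) and Gpr17 (0.092) were positive. Without the 6 h libraries 151 transcripts rose, and without the 1 h libraries 211 did and 1 member rose. Leaving out a replicate gave 153 to 347 transcripts rising, 6474 to 6894 falling, 1 to 2 members rising and 4 falling.

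In OLs, 232 transcripts rose at a pseudocount of 5 FPKM (146 as reported). With each library at the 0 h median 2963 rose and 1962 fell (6668 as reported), 4 members rose and 2 fell, and the slopes of Cspg4 (0.026), Cspg5 (0.23) and Ptprz1 (0.25) were positive. Without the 6 h libraries 50 rose, with slopes of 0.042 for Cspg5 and -0.0028 for Lhfpl3, and without the 1 h libraries that of Cd9 was -0.011. Leaving out a replicate gave 12 to 125 transcripts rising, 4948 to 5652 falling and 3 to 4 members falling, with slopes, without replicate 1 and without replicate 2, of -0.047 and 0.063 for Cd9, -0.069 and 0.019 for Cspg5, and -0.082 and 0.064 for Ptprz1.

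For the slope difference (1937 transcripts higher and 7 lower in OLs, 0 members higher and 1 lower), a pseudocount of 0.1 FPKM gave 569 and 0 transcripts, 0 members lower and 0.25 for Gpr37, and one of 5 FPKM gave 62 transcripts and 2 members lower and -0.032 for Pdgfra. An intensity trend gave 21 transcripts and 2 members lower. With each library at the 0 h median 120 transcripts were higher and 11 lower, 0 members were lower, and Cspg4 (-0.078), Cspg5 (-0.23) and Gpr37 (0.0099) turned. Without the 6 h libraries 1233 transcripts were higher, 0 members were lower, and Gpr37 was at 0.10. The term for cell type by time, which takes the libraries of a replicate as separate units, gave 32 transcripts lower, 1 member higher (Cspg4) and 2 lower. Leaving out a replicate gave 0 to 2204 transcripts higher and 0 to 17 lower, 0 to 1 members lower, and -0.0074 to 0.081 for Cspg5.

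For half-life, hours in place of log2 gave 581 transcripts longer and 19 shorter in OLs. Refits gave 11 longer without the 6 h and 552 without the 1 h libraries. Centring each replicate gave 0 longer and 1 shorter and turned Pdgfra (-0.32), Cspg4 (-0.12), Gpr17 (-0.41) and Gpr37 (-0.37). A shared mean decay curve gave 87 longer and 194 shorter and turned Cspg4 (-0.00096), Gpr17 (-0.046) and Gpr37 (-0.068), and ranks gave 15 longer and turned Gpr17 (-0.17) and Gpr37 (-5.43 percentile points). Without transcripts at the ceiling 148 were longer and 1 shorter, with an intensity trend 177 were longer, and by least squares, chosen after seeing the data, 19 were longer and 5 shorter. Leaving out a replicate gave 120 to 212 longer and 5 to 92 shorter, and 0 members passed.

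At 6 h, 3996 transcripts were retained more in OLs and 234 less, without overlap. Relative to the replicate's median these were 1303 and 2495, with 0 members more and 5 less (1 and 3 on the deposited scale), and at 4 h 2 members were more and 0 less, beside 3983 and 268 transcripts. Leaving out a replicate gave 4323 to 5250 and 299 to 687 transcripts and 1 to 3 and 3 to 4 members.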
